A study of Mus musculus with 3 samples.

Results

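The lipid handling genes described here, in cells of mouse dorsal skin, are Fabp5, Fabp4, Lpl, Apoe, Abca1, Abcg1, Plin2, Trem2, Gpnmb and Lgals3. These 10 genes, of the 32285 in the count matrices, were taken by symbol, and the set was chosen by the measured Fabp5 level, which was higher in macrophages of UVB-irradiated than of unirradiated wild-type skin. The Fabp5 difference between irradiated and unirradiated wild-type macrophages is therefore a description and was given no test. Their levels were read in single cells from 3 libraries, 1 for each group. The WT_Ctrl library came from wild-type skin without UVB, the WT_UV library from wild-type skin exposed to UVB 3 times, once every 2 days, and the RP_UV library from skin of the genotype labelled RP after the same exposures. Per the study's methods, RP animals carry Rosa26-rtTA and Tre-Ptgs2, so that doxycycline switches on rat Ptgs2, the gene of cyclooxygenase 2, throughout the body. All 3 groups were male C57Bl/6 mice of 8 weeks with hair follicles in telogen, the resting phase, and cells carrying the leukocyte protein CD45 had been enriched with magnetic beads before droplet capture with 10x 3′ chemistry. The study describes the RP_UV library as coming from a single RP mouse and counts a single sample for each wild-type library.

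Macrophages take up lipids from lipoproteins and dying cells, carry fatty acids through the cytoplasm on fatty acid binding proteins, store the excess in droplets and return cholesterol to lipoproteins through ABC transporters whose genes are switched on by the sterol-sensing LXR receptors. In damaged tissue a lipid-laden state of macrophages is marked by Trem2, Gpnmb, Lgals3 and Fabp5. In skin, Fabp5 is also the epidermal fatty acid binding protein of differentiating keratinocytes and sebaceous cells, so its message in a macrophage droplet has a possible source other than the macrophage.

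With 1 library in each group no difference could be tested against the spread between animals, and no p-value is given. Every interval below is a 95% interval that covers counting error only. Messages were counted as unique molecular identifiers (UMIs), and levels are given in CPM, the UMIs of a gene in every 1000000 UMIs of all genes summed over the cells of a class. Ptgs2, the transgene's product, stood at 14.4 CPM in WT_Ctrl, 117.5 in WT_UV and 486 in RP_UV over all kept cells, on the mouse gene's row, on which rat messages may be counted only in part. The libraries held 34985549, 82722013 and 37689836 UMIs in 5977, 6149 and 7240 barcodes, of which 5309, 5225 and 6070 passed the study's filters. Kept cells had a median of 4246 UMIs in WT_Ctrl, 10557 in WT_UV and 3774 in RP_UV. By the labels WT_UV was sequenced on a flow cell of its own and the other two libraries on a common one, so in both comparisons with WT_UV the group and the sequencing run cannot be told apart. Pairs of libraries shared 8 to 11 barcodes. Despite the enrichment, keratinocyte classes held 28.7%, 9.96% and 24.2% of the UMIs, libraries in the same order.

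Cells were grouped into 115 clusters, and 80 were named from marker genes, macrophages for example from Adgre1, Csf1r and the complement C1q genes, so each class name below means cells that are like that type. The other 35 clusters, with 17.4%, 21.6% and 19.5% of the kept cells in WT_Ctrl, WT_UV and RP_UV, stayed unnamed because their markers were too few, too close to a second type or mixed. Macrophage-like and monocyte-like cells are counted together as macrophages unless stated, with 1782 cells and 6738662 UMIs in WT_Ctrl, 2122 and 23090279 in WT_UV, and 2170 and 10506774 in RP_UV. Monocyte-like cells were 5.72%, 22.2% and 7.83% of them. Summed levels do not tell more messages per cell from more cells that hold any, so shares of cells are given further on.

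The genes lie at separate places in the genome, except that Fabp5 and Fabp4 lie close together on chromosome 3. In GRCm38.p6, the RefSeq release of the mm10 build, Fabp5 (ENSMUSG00000027533) spans chr3:10012585-10016610 and Fabp4 chr3:10204342-10208616. Lpl spans chr8:68880555-68906932, Apoe chr7:19696244-19701310 and Plin2 chr4:86626910-86670217. Abca1 spans chr4:53030789-53159988 and Abcg1 chr17:31057694-31117984. Trem2 spans chr17:48346401-48352276, Gpnmb chr6:49036518-49058182 and Lgals3 chr14:47373860-47386167. The matrices held a single row for Fabp5. Fabp5 has close relatives and processed copies in the genome, and how reads fitting several of them were counted was not assessed, so its absolute level is less certain than its ratios between libraries.

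Abca1 is shown with a control element because it is the textbook LXR target among the 10 and the element can be read directly. The 29 bases around it, on the minus strand at chr4:53159941-53159969, are given 5′ to 3′ from RefSeq in GRCm38.p6, with capitals marking TGACCG, 4 bases of any kind and TAACC, a form of the repeat that LXR binds.
Abca1: cagcgttTGACCGGTAGTAACCccggcgc
The repeat starts 67 bases before the start at chr4:53159895 for which the RefSeq window was drawn. The span of Abca1 reaches 93 bases past that start, so the repeat lies inside the gene's span and may be transcribed in longer forms. Searched on both strands, these letters stood in the 250 bases before the start in 4 of 32851 promoter windows, or 0.0122%, at Abca1, Srebf1, Fasn and Prrg4. The letters were chosen with the Abca1 sequence known, and a match is only a description. Of the 10 genes, 6 had a window in the table used, and Fabp4, Fabp5, Lpl and Abcg1 had none.

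Fabp5 was the member with the largest difference between unirradiated and irradiated skin. In macrophages it stood at 79.2 CPM for WT_Ctrl (72.7 to 86.3), 739 for WT_UV (728 to 750) and 958 for RP_UV (940 to 977). The WT_UV level was 9.33 times the WT_Ctrl level (8.56 to 10.2), the value for which the gene was picked, and RP_UV was 12.1 times WT_Ctrl (11.1 to 13.2) within the flow cell those libraries shared. Between the irradiated libraries the ratio was 1.3 (1.26 to 1.33), so the step from unirradiated to irradiated skin was by far the larger one. Macrophage-like clusters alone gave 77.5, 721 and 936 CPM, and monocyte-like clusters 102.4, 807 and 1215, so the low level in WT_Ctrl and the high levels after UVB were present in each.

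Fabp4, the fatty acid binding protein of adipocytes, capillary endothelium and some macrophages, followed another order. It stood at 15.6 CPM in WT_Ctrl, 2.38 in WT_UV and 59.5 in RP_UV, from 105, 55 and 625 UMIs. WT_UV was thus lowest, at 0.153 times WT_Ctrl (0.108 to 0.214), and RP_UV was highest, at 25.0 times WT_UV (18.9 to 33.5) and 3.82 times WT_Ctrl (3.10 to 4.74). Endothelial cells held 18069, 12855 and 25388 CPM of Fabp4. They numbered 93, 27 and 275, with 4834, 3031 and 28025 Fabp4 UMIs, lowest in WT_UV and highest in RP_UV as in macrophages. The endothelial genes Cdh5 and Pecam1 were also present in the macrophage class at 0.742 to 2.28 and 2.67 to 3.68 CPM. If all Cdh5 in the macrophage class came with endothelial RNA of the average makeup, that RNA would bring 99.2% of the macrophage Fabp4 in WT_Ctrl, 1824% in WT_UV and 129% in RP_UV, and Pecam1, which leukocytes also express, gives 268%, 2263% and 129%. A value above 100% shows that the assumption did not hold, so the estimate sets no level, and the part of endothelial RNA was not tested further. The higher Fabp4 level of RP_UV was not particular to macrophages. Schwann cells held 0.0 CPM in WT_Ctrl and 116.7 in RP_UV, fibroblasts 2.65 and 104.4, and basal keratinocytes 5.27 and 32.1. Lower in RP_UV by point value were pericytes or smooth muscle cells (4254 and 3928) and T cells (4.87 and 0.0). Between macrophage clusters of WT_Ctrl, described further on, Fabp4 ran from 4.80 CPM in the Ccl8-high to 56.3 in the Ccl8-low cluster.

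Lpl, the secreted lipase that frees fatty acids from lipoprotein triglycerides, was lowest in RP_UV. Macrophages held 315 CPM of Lpl for WT_Ctrl (302 to 329), 316 for WT_UV (309 to 323) and 69.0 for RP_UV (64.1 to 74.2). The wild-type libraries had a ratio of 1.0 (0.956 to 1.05), while RP_UV stood at 0.218 times WT_UV (0.202 to 0.236) and 0.219 times WT_Ctrl (0.201 to 0.238). Monocyte-like clusters held more, 578 CPM for WT_Ctrl (511.5 to 651.4), 444 for WT_UV (425.9 to 463.5) and 143 for RP_UV, so there WT_UV lay below WT_Ctrl and RP_UV was again lowest. The ratio near 1 between the wild-type libraries thus did not hold in every macrophage state, and values by cluster are given further on.

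Apoe, the apolipoprotein that macrophages secrete as an acceptor of cholesterol, was lowest in WT_UV. Its levels were 16687 CPM in WT_Ctrl, 8292 in WT_UV and 15749 in RP_UV, a ratio of 0.497 for WT_UV over WT_Ctrl (0.493 to 0.501) and of 0.944 for RP_UV over WT_Ctrl (0.937 to 0.951). Part of this moved with the monocyte-like share, which was highest in WT_UV and in which Apoe stood at only 2870, 2510 and 5560. In macrophage-like clusters alone Apoe stood at 17720, 9843 and 16641 CPM, so WT_UV stayed lowest but no longer passed a 2-fold difference.

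The cholesterol exporters Abca1 and Abcg1 differed from each other. Abca1, which loads cholesterol onto lipid-poor apolipoproteins, stood at 286 CPM for WT_Ctrl (274 to 299), 265 for WT_UV (258 to 272) and 319 for RP_UV (308 to 330), and no ratio between libraries left the range 0.926 to 1.20 in the whole class. Monocyte-like clusters alone differed more, with 36.3 CPM for WT_Ctrl (21.1 to 58.1), 132.4 for WT_UV (122.4 to 143) and 204.5 for RP_UV (175.2 to 237.4). Abcg1, which exports to mature lipoprotein particles, stood at 39.2 for WT_Ctrl (34.6 to 44.2), 101.8 for WT_UV (97.7 to 106) and 97.8 for RP_UV (92.0 to 104). Both irradiated libraries lay above the unirradiated one for Abcg1, at 2.60 (2.29 to 2.96) and 2.5 times (2.18 to 2.87). In the whole class the interval of the ratio between the irradiated libraries, 0.893 to 1.03, included no difference. By cluster, given further on, that ratio lay on both sides of 1.

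Plin2, the protein that coats lipid droplets, differed little in the whole class. It stood at 249 CPM for WT_Ctrl (238 to 262), 213 for WT_UV (207 to 219) and 206.5 for RP_UV (198 to 215). WT_UV was at 0.855 times (0.808 to 0.904) and RP_UV at 0.828 times WT_Ctrl (0.777 to 0.883). Monocyte-like clusters alone differed more, with 320.1 CPM for WT_Ctrl (270.9 to 375.6), 178.5 for WT_UV (166.8 to 190.7) and 224.6 for RP_UV (193.8 to 258.9).

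Among the genes of lipid-laden macrophages, Trem2, a receptor for lipids and lipoproteins, was highest in RP_UV. It stood at 64.3 CPM for WT_Ctrl (58.3 to 70.6), 77.4 for WT_UV (73.9 to 81.1) and 146 for RP_UV (138 to 153). The ratio was 1.21 for WT_UV over WT_Ctrl (1.08 to 1.34), 1.88 for RP_UV over WT_UV (1.76 to 2.01) and 2.27 for RP_UV over WT_Ctrl (2.04 to 2.53), so for Trem2 the larger step lay between the irradiated libraries. Gpnmb, a lysosomal glycoprotein, was rare at 2.67, 4.89 and 10.2 CPM, from 18, 113 and 107 UMIs, and did not reach the mean of 10 that was required of a gene to be counted. Its ratio for RP_UV over WT_Ctrl was 3.81, with an interval from 2.30 to 6.68. Lgals3, the galactose-binding lectin galectin-3, stood at 693 in WT_Ctrl, 1285 in WT_UV and 1080 in RP_UV, ratios of 1.85 and 1.56 over WT_Ctrl. Monocyte-like clusters held 2352, 2250 and 2327 of Lgals3 with no such order, and macrophage-like clusters 569, 1026 and 971, lowest in WT_Ctrl. The monocyte-like share was larger in WT_UV, and its part in the whole-class ratio was not tested. By cluster, given further on, the ratio of WT_UV over WT_Ctrl lay on both sides of 1.

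**Figure D1:**
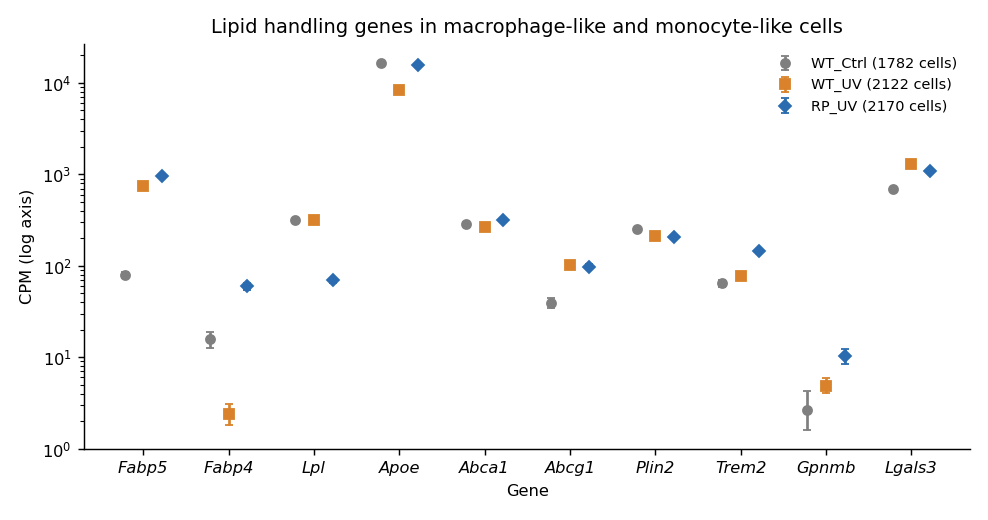
Level of each of the 10 genes in macrophage-like and monocyte-like cells of each library, in CPM on a log axis, with 95% Poisson intervals that cover counting error only. Fabp5 lies at 79.2 in WT_Ctrl and at 739 and 958 in the irradiated libraries, Lpl is lowest in RP_UV at 69.0, and Abca1 and Plin2 have nearly the same level in all 3 libraries.

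Of the 10 genes, 9 had a mean of at least 10 CPM in macrophages, and a 2-fold difference on the scale of log2(CPM + 1) was counted. Fabp4 reached that mean only through RP_UV. For WT_UV over WT_Ctrl, 2 were higher (Fabp5 and Abcg1) against 3.51% of the 7654 genes kept, and 2 were lower (Fabp4 and, just past the limit at a log2 ratio of -1.01, Apoe) against 0.928%. For RP_UV over WT_UV, 1 was higher (Fabp4, background 1.27%) and 1 lower (Lpl, background 3.1%). For RP_UV over WT_Ctrl, 4 were higher (Fabp5, Fabp4, Abcg1 and Trem2, background 4.14%) and 1 was lower (Lpl, background 3.59%). The genes were chosen with these libraries in view, so the counts describe them and show no enrichment. The median log2 ratio over all 10 genes was 0.14, 0.32 and 0.90 in the same order, and over the 9 kept it was 0.00, 0.27 and 0.64, beside 0.04, -0.02 and 0.05 over all genes kept.

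**Figure D2:**
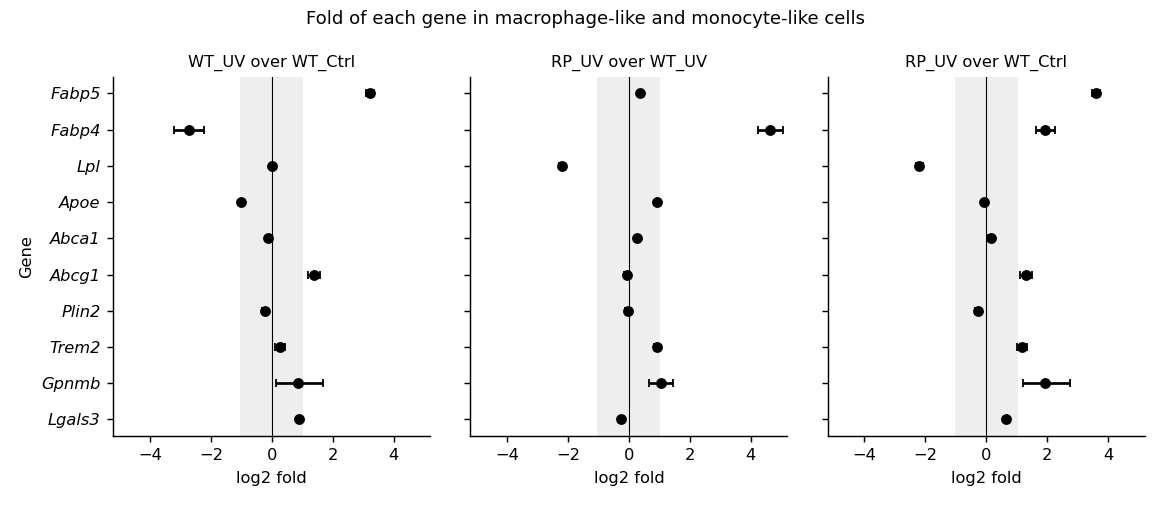
Log2 ratio between libraries for each of the 10 genes in macrophages, in 3 comparisons, each point with its 95% interval from counting error and a grey band for differences below 2-fold. Fabp5 lies far to the right in both comparisons with WT_Ctrl and near 0 between the irradiated libraries, while Lpl lies near 0 between the wild-type libraries and below -2 in both comparisons of RP_UV.

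The order held to a different extent within the macrophage-like states. Clustering of the 3 libraries together gave 4 clusters of macrophages with at least 50 cells of every library. They were a Ccl8-high cluster with 805, 638 and 613 cells in WT_Ctrl, WT_UV and RP_UV, a Lyve1-high cluster with 663, 505 and 784, a Ccl8-low cluster with 208, 478 and 533, and a monocyte-like cluster with 100, 377 and 151. Fabp5 was lowest in WT_Ctrl in each of them, at 27.2 to 177 CPM. In the Ccl8-low cluster, WT_UV reached 1737 and RP_UV 1603 CPM of Fabp5, ratios of 9.80 and 9.04 over WT_Ctrl. The Ccl8-high cluster held 89.2, 438 and 1001, and the Lyve1-high cluster, which had the least Fabp5, held 27.2, 149 and 275. WT_UV over WT_Ctrl was 4.92 in the Ccl8-high, 5.48 in the Lyve1-high and 8.31 in the monocyte-like cluster, each below the 9.33 of the whole class. The Ccl8-low and monocyte-like clusters, with the most Fabp5 in both wild-type libraries, had more cells in WT_UV than in WT_Ctrl. The part of this in the whole-class ratio was not tested. Between the irradiated libraries RP_UV was the higher in the Ccl8-high (2.28), Lyve1-high (1.85) and monocyte-like (1.45) clusters and not in the Ccl8-low cluster (0.923). The 10 genes were left out when the cells were clustered, but the clusters were built from these same cells, so the order among clusters is a description.

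In the comparisons named next, Lpl, Trem2, Apoe and Fabp4 each kept the direction of the whole class in all 4 clusters. Values are given in the order Ccl8-high, Lyve1-high, Ccl8-low and monocyte-like. Lpl in RP_UV stood at 0.405, 0.202, 0.182 and 0.335 times WT_UV, Trem2 in RP_UV at 2.57, 1.59, 1.69 and 2.46 times WT_UV, and Apoe in WT_UV at 0.646, 0.558, 0.442 and 0.917 times WT_Ctrl. Fabp4 in WT_UV stood at 0.0245 to 0.31 times WT_Ctrl. Lpl in WT_UV was also below WT_Ctrl by its point value in each, at 0.611 (0.552 to 0.676), 0.43 (0.385 to 0.48), 0.916 (0.837 to 1.0) and 0.762 (0.671 to 0.869), although the whole class gave 1.0. The Ccl8-low and monocyte-like clusters, where Lpl was highest in the wild-type libraries (761 and 581 CPM in WT_Ctrl, 697 and 443 in WT_UV), were larger in WT_UV than in WT_Ctrl.

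For other members or comparisons the direction varied between clusters. Abcg1 in WT_UV stood above WT_Ctrl in the Ccl8-high, Ccl8-low and monocyte-like clusters (2.36, 2.58 and 1.55) and below it in the Lyve1-high cluster (0.761). Abcg1 in RP_UV was above WT_UV in the Ccl8-high (1.47, from 1.28 to 1.68) and Lyve1-high clusters (3.85, from 3.11 to 4.8). It was below WT_UV in the Ccl8-low (0.59, from 0.514 to 0.676) and monocyte-like clusters (0.643, from 0.51 to 0.801). Trem2 in WT_UV, slightly above WT_Ctrl in the whole class, was at 0.71 times in the Lyve1-high (0.582 to 0.869) and 0.735 times in the monocyte-like cluster (0.554 to 0.991). Trem2 in RP_UV was 1.13 times WT_Ctrl in the Lyve1-high cluster (0.93 to 1.38) and 1.7 to 2.95 times in the others. Fabp4 in RP_UV stood at 19.1 (11.6 to 33.9), 2.76 (1.88 to 4.16), 0.689 (0.476 to 1.01) and 1.1 (0.573 to 2.22) times WT_Ctrl, clusters in the same order. Abca1 in the monocyte-like cluster was 3.61 times WT_Ctrl in WT_UV (2.23 to 6.24) and 5.38 times in RP_UV (3.26 to 9.46), and in the other clusters between 0.848 and 1.55 times. Plin2 in RP_UV was 1.14, 0.636, 1.03 and 1.23 times WT_UV. Lgals3 in WT_UV was 2.0 times WT_Ctrl in the Ccl8-low cluster and between 0.916 and 1.31 in the others. When each cluster was split further, the libraries fell largely into different subclusters, so that levels within a subcluster compare few cells. The RP_UV macrophages of a Ccl8-high subcluster held 3146 CPM of Fabp5 and 274 of Trem2, those of a Ccl8-low subcluster 2066 of Fabp5, 337 of Trem2 and 32.6 of Gpnmb, and the WT_UV macrophages of another Ccl8-low subcluster 2189 of Fabp5.

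**Figure D3:**
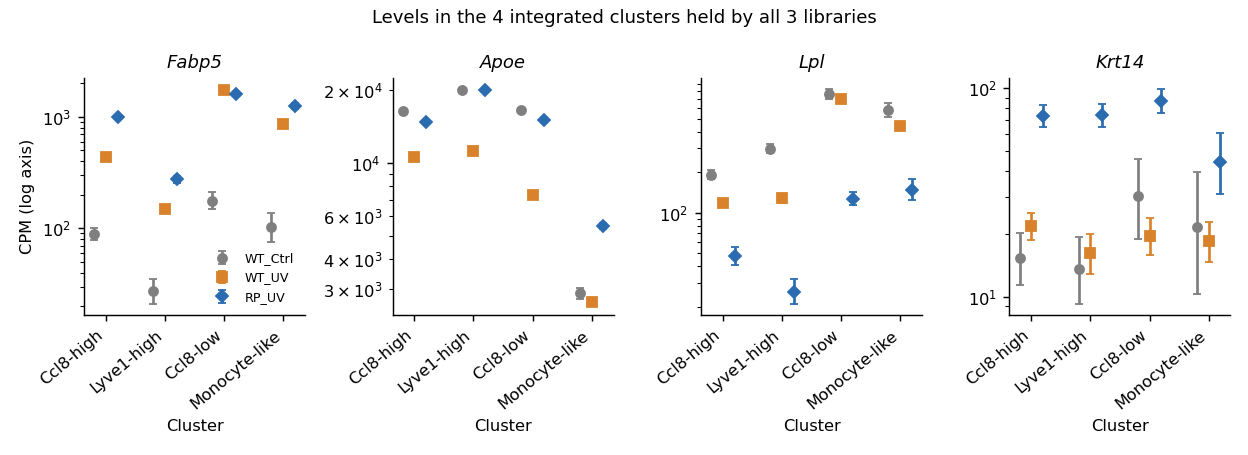
Fabp5, Apoe, Lpl and Krt14 in CPM, each on its own log axis, in the 4 macrophage clusters with at least 50 cells of each library, with 95% Poisson intervals from counting error. For Fabp5, WT_Ctrl is lowest in every cluster and the irradiated libraries are nearest to each other in the Ccl8-low cluster, at 1737 and 1603, and for Krt14, at 44.1 to 86.9, RP_UV is highest in every cluster.

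Keratinocyte RNA in the macrophage droplets was judged with Krt14 and Krt5, keratins of basal keratinocytes, and with Krt10 and Krt1 of the suprabasal layers. The macrophage class held 16.9 CPM of Krt14 for WT_Ctrl (14.0 to 20.3), 19.7 for WT_UV (18.0 to 21.6) and 88.9 for RP_UV (83.3 to 94.8). Krt5 stood at 18.4, 11.3 and 29.7, and Krt10 at 62.3, 63.9 and 37.4. Krt14 and Krt5 were thus highest in RP_UV, whereas from WT_Ctrl to WT_UV, where Fabp5 was 9.33 times higher, Krt14 was nearly level and Krt5 lower. If all Krt14 in macrophages had come with RNA of the average keratinocyte of the same library, that RNA would bring 3.85% of the macrophage Fabp5 in WT_Ctrl, 0.978% in WT_UV and 5.79% in RP_UV. Krt5 gave 5.56%, 1.13% and 6.08%. The largest share from any of the keratins and keratinocyte layers was 7.82% in WT_Ctrl (Krt10 with suprabasal cells), 3.04% in WT_UV and 6.08% in RP_UV. The estimate assumes that stray RNA has the makeup of the named class, and it would be larger for RNA from sebocytes, whose Fabp5 level in RP_UV was 34351 CPM. It is also no upper limit for stray RNA from all sources. Among classes with at least 20 cells, the lowest Fabp5 levels were 15.2 CPM in WT_Ctrl (Langerhans cells), 84.3 in WT_UV (conventional type 1 dendritic cells) and 145.6 in RP_UV (mast cells, 7 UMIs). How much of these was stray RNA was not tested. For Lgals3 the largest such share was 3.08%, in WT_Ctrl.

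A small cluster carried both keratins and macrophage genes. It held 4, 30 and 70 of the macrophages in WT_Ctrl, WT_UV and RP_UV, and in RP_UV its Krt14 level was 2629 and its Fabp5 level 4597 CPM. There it held 0.547% of the macrophage UMIs, 16.2% of their Krt14 and 2.62% of their Fabp5. Without it Fabp5 stood at 79.3, 739 and 938 CPM and Krt14 at 16.9, 19.6 and 74.9, so the Fabp5 order was the same.

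Cells without any keratin UMI gave the same order as the whole class. For shares of cells, 2000 UMIs were drawn from every cell, and the 293, 101 and 272 macrophages with fewer were not used. Among macrophages with no UMI of Krt14, Krt5, Krt1 or Krt10, a Fabp5 UMI was found in 10.8% of the 1243 cells of WT_Ctrl (9.18 to 12.6), 38.9% of the 1550 of WT_UV (36.5 to 41.4) and 46.5% of the 1411 of RP_UV (43.9 to 49.1). Among those with a keratin UMI the shares were 15% of 246, 31.0% of 471 and 47.0% of 487. In WT_UV the share of Fabp5-bearing macrophages was thus lower among cells with a keratin UMI, and in RP_UV the values nearly coincided. Thinned macrophages held on average only 0.0322, 0.0465 and 0.177 UMIs of Krt14 and 0.126, 0.166 and 0.0785 of Krt10, libraries in the same order. At such low counts a droplet with stray RNA can lack a keratin UMI, so the split does not separate droplets with and without it. The source of Fabp5 was not tested by this split.

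Over all thinned macrophages, a Fabp5 UMI was found in 11.5% for WT_Ctrl (9.96 to 13.2), 37.1% for WT_UV (35.0 to 39.2) and 46.6% for RP_UV (44.4 to 48.9), and at full depth in 19.9%, 65.9% and 64.8%. T cells, taken as a class of leukocytes that are not macrophages, had it in 12.2% of the 254 cells of WT_Ctrl (8.73 to 16.8), 19.3% of the 628 of WT_UV (16.4 to 22.5) and 5 of the 16 of RP_UV. At full depth the T cells had medians of 2482, 5690 and 1746 UMIs against 3748, 10355 and 4452 in macrophages. In WT_Ctrl the shares in macrophages and T cells had overlapping intervals, while in WT_UV the macrophage share lay above that of T cells. Fabp5 in WT_Ctrl was lower still in Langerhans cells and fibroblasts, at levels given further on, so the T cell share is not the least that free RNA allows. The 16 T cells of RP_UV are too few to set a background there. Of all Fabp5 UMIs in thinned macrophages, the top 10% of cells held 89.2% in WT_Ctrl, 67.2% in WT_UV and 63.7% in RP_UV. In WT_Ctrl these top cells numbered 149, and only 171 of the 1489 thinned macrophages held any Fabp5 UMI. The WT_Ctrl share is thus set mostly by how few cells held a Fabp5 UMI. Whether Fabp5 was more concentrated in any library was not tested.

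The other members are set beside the same T cells, of which RP_UV had 16. Trem2 was found in 9.20%, 10.7% and 20% of thinned macrophages and in 0 of 254, 0.159% and 0 of 16 T cells, where by the limit of 3 counts 0 of 254 allows a share of up to 1.18% and 0 of 16 up to 18.8%. Abca1 stood at 41.4%, 37.8% and 45.9% against at most 3.82% in T cells, Plin2 at 37.5%, 30.5% and 31.7% against at most 6.25%, and Lpl at 31.1%, 29.0% and 9.64% against 3.54% and 2.39% in T cells of WT_Ctrl and WT_UV and 1 of 16 in RP_UV. Apoe was found in 94.5% to 98.7% of macrophages and also in 16.1% to 50% of T cells. Abcg1 reached 7.32% of WT_Ctrl macrophages, close to the 6.69% of T cells, and 15.1% and 17.5% after UVB, against 6.37% in T cells of WT_UV. Lgals3 was found in 59.6%, 68.0% and 72.5% of macrophages and in 37.5% to 50.8% of T cells, and Fabp4 and Gpnmb in at most 5.80% and 1.79% of macrophages.

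**Figure D4:**
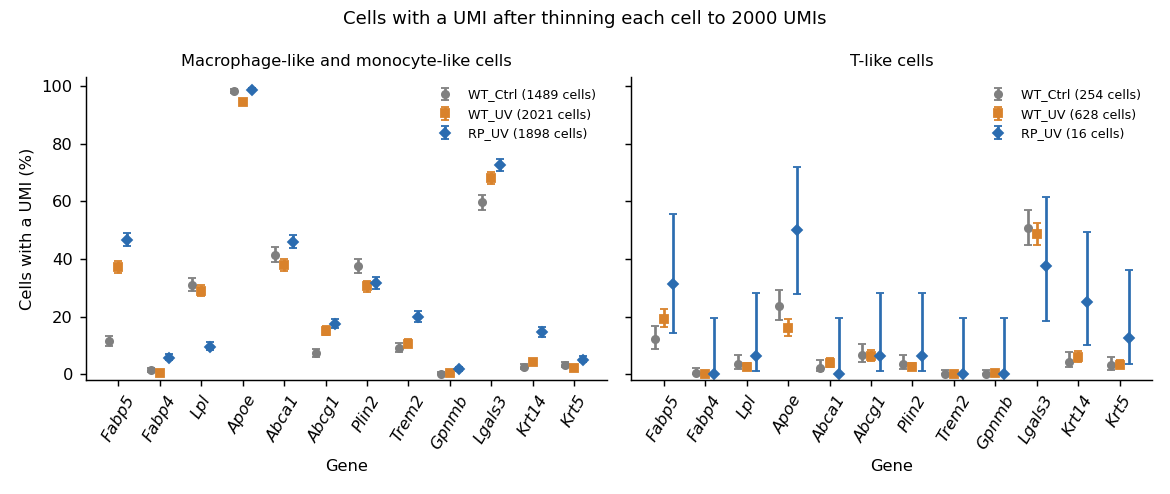
Percent of cells with at least 1 UMI of each gene after thinning to 2000 UMIs, for the 10 genes, Krt14 and Krt5 in macrophages (left) and T cells (right) of each library, with 95% Wilson intervals from counting error. Fabp5 in WT_Ctrl macrophages (11.5%) lies at the T cell share (12.2%), and Trem2 is found in T cells at 0.159% or less.

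Across all classes, Fabp5 was highest outside the macrophages. In RP_UV the order began with sebocytes at 34351 CPM, hair follicle keratinocytes at 13847 and suprabasal keratinocytes at 11670, followed by endothelial cells at 2653 and basal keratinocytes at 1476, with no overlap between the intervals of these neighbours. In WT_UV mature dendritic cells led at 6522 (6331 to 6718), ahead of suprabasal keratinocytes at 5119 and hair follicle keratinocytes at 2216, and in WT_Ctrl the same class led at 2269 (2056 to 2498), ahead of suprabasal keratinocytes at 1181. These mature dendritic cells numbered 26 in WT_Ctrl and 41 in WT_UV. Macrophages stood below them, and in WT_Ctrl the interval of macrophage-like cells overlapped that of T cells at 96.4. Intervals of neighbours in the order overlapped in 10 of 14 cases for WT_Ctrl, 5 of 12 for WT_UV and 5 of 14 for RP_UV. Classes with fewer than 20 cells in a library were left out of its order. Sebocytes, with 8 and 12 cells in WT_Ctrl and WT_UV, thus had no place in the wild-type orders, nor had the 5 mature dendritic cells of RP_UV in its order. The leading class is therefore not comparable between wild-type and RP_UV skin.

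Every class measured in both WT_Ctrl and RP_UV held more Fabp5 in RP_UV by its point value. Basal keratinocytes held 55.3 (WT_Ctrl), 104 (WT_UV) and 1476 CPM (RP_UV), and suprabasal keratinocytes at 1181, 5119 and 11670. Conventional type 2 dendritic cells stood at 165, 507.5 and 704, Langerhans cells at 15.2, 107 and 425, and T cells at 96.4, 159 and 328. Endothelial cells were the exception for WT_UV, with 792, 628 and 2653, though only 27 of them were found in WT_UV. Fibroblasts stood at 20.3 in WT_Ctrl and 158 in RP_UV, and mast cells, with 30 and 35 cells, had overlapping intervals. The Fabp5 level moved in this direction in T cells too, and what free RNA contributed to it outside the macrophages was not tested. Macrophages held 4.93%, 30.7% and 10.9% of all Fabp5 UMIs of WT_Ctrl, WT_UV and RP_UV, against 26.1%, 35.8% and 36.1% of all UMIs. Keratinocyte classes, sebocytes included, held 62.4%, 30.8% and 65.8% of the Fabp5 UMIs, and in WT_Ctrl 24.5% sat in 8 sebocyte-like cells.

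**Figure D5:**
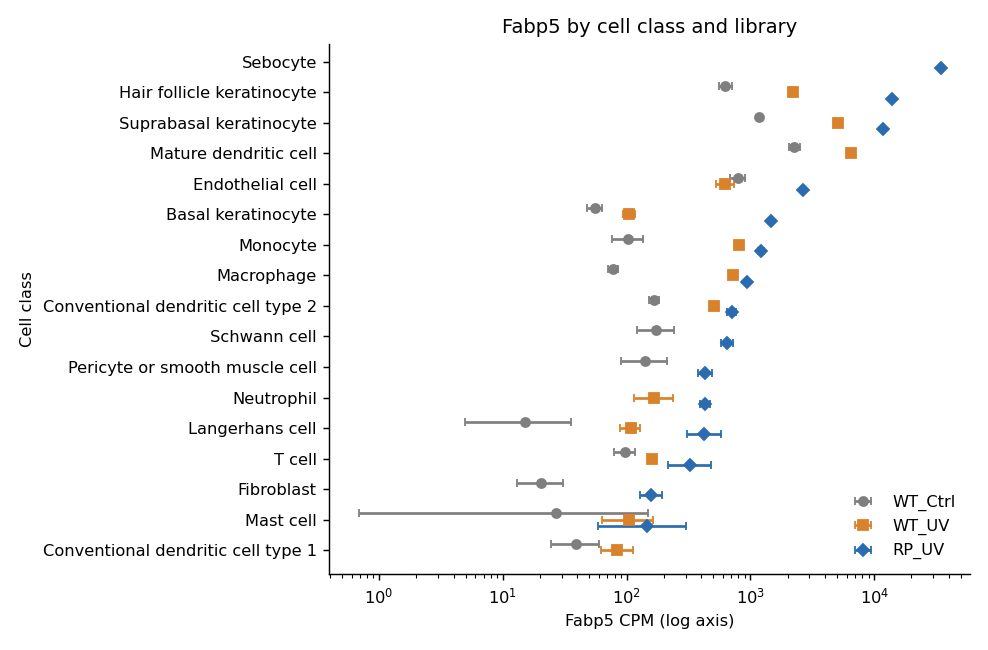
Fabp5 in CPM, on a log axis, in every class with at least 20 cells of a library, with 95% Poisson intervals from counting error. Sebocytes and keratinocytes lead in RP_UV, and mature dendritic cells lead in both wild-type libraries, where sebocytes were too few to be shown. The macrophage points of WT_UV (721) and RP_UV (936) lie far above that of WT_Ctrl (77.5).

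The other members had their own leading classes. Macrophages held 80.0%, 73.2% and 74.1% of the Trem2 UMIs, and in RP_UV conventional type 2 dendritic cells at 68.1 and neutrophils at 40.5 CPM followed the 139.7 of macrophage-like cells. Macrophages also held 71.9%, 69.9% and 67.0% of Abca1 and 58.6%, 64.9% and 61.4% of Apoe. Apoe was also high in hair follicle keratinocytes, at 15330, 18833 and 12426 CPM. Lpl was highest in monocyte-like cells in WT_Ctrl and WT_UV (578 and 444) and in sebocytes and fibroblasts in RP_UV (504 and 385). Plin2 was highest in RP_UV sebocytes at 2668, Gpnmb in fibroblasts at 155 in WT_Ctrl and 75.0 in RP_UV, and Lgals3 in suprabasal keratinocytes at 4074, 4460 and 4095. If Dcn, a fibroblast gene, in macrophages marked fibroblast RNA, that RNA would bring 9.70% of the macrophage Gpnmb in WT_Ctrl and 0.904% in RP_UV.

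In all keratinocyte classes pooled, 7 of the 10 genes were kept by the same filter. Fabp4 and Lpl passed it only through RP_UV, at 28.4 and 50.2 CPM, so their being counted is no support. For WT_UV over WT_Ctrl, Fabp5 was higher by 2.92 times (2.84 to 3.00, background 2.24%) and Fabp4 was lower (0.154, from 4.05 to 0.622 CPM, background 1.22%). For RP_UV over WT_UV, 4 were higher, against 3.34% of 7372 genes, namely Fabp5 (3.24 times), Plin2 (3.51), Lpl (7.01, from 7.15 to 50.2 CPM) and Fabp4 (45.7, from 0.622 to 28.4). The same 4 were higher for RP_UV over WT_Ctrl, against 5.81%, with Fabp5 at 9.46 times (9.22 to 9.70) and Plin2 at 5.78 times (5.17 to 6.48). None of the kept genes was 2-fold lower in the comparisons with RP_UV, where the background was 2.9% and 7.37%. RP_UV keratinocytes held 96 sebocytes against 8 and 12 in WT_Ctrl and WT_UV, and sebocytes led in Plin2, Lpl and Fabp5. In basal keratinocytes alone, Fabp5 was 26.7 times (23.2 to 30.8) and Plin2 2.56 times (2.12 to 3.12) the WT_Ctrl level in RP_UV.

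In conventional type 2 dendritic cells, which share the dermis with macrophages, 8 of the 10 genes were kept. Trem2 passed the filter only through its 68.1 CPM in RP_UV, so its being counted is no support. For WT_UV over WT_Ctrl, 3 were higher, against 4.0% of 6974 genes, namely Fabp5 (3.07 times, 2.79 to 3.39), Lpl (2.98) and Trem2 (4.07). For RP_UV over WT_UV, Trem2 alone was higher (4.68 times, 3.28 to 6.60, background 2.14%). For RP_UV over WT_Ctrl, 3 were higher, against 7.36%, namely Fabp5 (4.27 times), Trem2 (19.1) and Lgals3 (2.33). Trem2 in these cells stood at 3.57, 14.6 and 68.1 CPM, so its order over the libraries was that seen in macrophages. No kept member was 2-fold lower, where the background was 1.26%, 4.73% and 6.38%.

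The wider lipid pathways of the macrophages moved unevenly. The counts below stand beside the background shares given above for macrophages. Of 12 genes of fatty acid uptake and binding, 8 were kept, and besides Fabp5 and Fabp4 only the scavenger receptor Cd36 passed 2-fold, with 319, 162 and 131 CPM and a ratio of 0.411 for RP_UV over WT_Ctrl. Of 7 genes of lipoprotein uptake, 5 were kept. Msr1, the class A scavenger receptor, was higher in WT_UV (2.38 times WT_Ctrl) and RP_UV (2.21 times). Of 9 lipases and lysosomal enzymes of lipid release, 8 were kept and only Lpl passed 2-fold. Lipa, the lysosomal acid lipase, stood at 226, 131 and 118 CPM. Of 5 apolipoproteins and transfer proteins, 3 were kept, and Apoe alone passed 2-fold in WT_UV over WT_Ctrl. Pltp, the phospholipid transfer protein, was lower in RP_UV at 0.461 times WT_Ctrl, with 1011, 616 and 466 CPM.

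The list of cholesterol efflux and LXR targets held 3 genes above 2-fold for WT_UV over WT_Ctrl. Of its 10 genes, 9 were kept, and the same comparison gave none lower, with 1 higher in RP_UV than in WT_UV and 3 in RP_UV than in WT_Ctrl. The 1 lower gene, Cyp27a1 at 0.406 times WT_Ctrl in RP_UV, encodes a sterol hydroxylase and is named after its value was seen. Besides Abcg1, the higher ones were Nr1h3, which encodes LXR alpha, at 4.01, 12.3 and 14.3 CPM, the desaturase gene Scd2 at 6.83, 24.9 and 14.3, and its relative Scd1 at 5.34, 4.42 and 22.8. These 3 reached a mean of 10 only through the libraries in which they were high, so their being counted is no support. The median log2 ratio of the list was 0.21, -0.03 and 0.57 for WT_UV over WT_Ctrl, RP_UV over WT_UV and RP_UV over WT_Ctrl. Of 9 genes of the PPAR axis and fatty acid oxidation, 7 were kept, and only Angptl4, an inhibitor of Lpl and a PPAR target, passed 2-fold, with 18.7, 14.9 and 3.81 CPM and a ratio of 0.256 for RP_UV over WT_UV (0.18 to 0.356). Lpl and Angptl4 were thus both lowest in RP_UV. No kept gene of droplet storage (4 of 8) or of sterol synthesis (6 of 9) passed 2-fold in any of the 3 comparisons.

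The list of lipid-associated macrophage genes leaned to RP_UV. Of its 11 genes, 9 were kept, and 1 was higher in WT_UV than in WT_Ctrl, 3 in RP_UV than in WT_UV and 4 in RP_UV than in WT_Ctrl, with none lower. The median log2 ratio was 0.00, 0.63 and 0.64. Spp1, which encodes the secreted protein osteopontin, stood at 2.67, 15.2 and 82.7 CPM, a ratio of 5.71 for WT_UV over WT_Ctrl (3.56 to 9.74) and 5.43 for RP_UV over WT_UV (4.79 to 6.16), and it was kept only through its levels after UVB. The lysosomal proteases Ctsl and Ctsd stood at 525, 673 and 1443 and at 512, 488 and 1257 CPM. In RP_UV they were 2.15 and 2.58 times the WT_UV level.

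Markers of other cells within the macrophage class were uneven over the libraries too, and their part in the values above was not tested beyond the estimates given. The summed level of 10 keratinocyte genes was 261, 284 and 404 CPM, with 3 higher and 1 lower for RP_UV over WT_Ctrl. That of 5 neutrophil genes was 101, 67.2 and 107, within which S100a8 stood at 0.445, 2.43 and 37.2 and S100a9 at 0, 2.69 and 35.4, both kept only through RP_UV. That of 5 fibroblast genes was 160, 69.0 and 57.6, with 4 lower in WT_UV than in WT_Ctrl. The 5 endothelial genes summed to 10.1, 8.75 and 8.19, and 5 adipocyte genes to 1.78, 0.606 and 6.38, with none of either list kept by the filter.

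Genes whose pattern over classes and libraries was most like that of Fabp5 were ranked by Pearson's correlation of log2(CPM + 1) over 35 pairs of class and library with at least 50 cells. Among 3011 genes with a mean of at least 50 CPM over the pairs, Elovl4 (0.80), Sdr16c6 (0.77), Psapl1 (0.75), Mrpl36 (0.73) and Uqcrq (0.73) came first. Elovl4 encodes an elongase of very long fatty acids. Elovl4, Sdr16c6 and Psapl1 were among the leading genes of a sebocyte cluster. Sebocytes entered the pairs only through the 96 cells of RP_UV, where Fabp5 stood at 34351 CPM. How far the ranking rests on that pair was not tested. Of the other members Lgals3 (0.45) and Apoe (0.42) came nearest and Abcg1 (-0.21) and Gpnmb (-0.23) farthest, and Krt14 itself reached 0.55. The pairs share libraries and depth, so these values describe the pattern only.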

How the data were processed

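Per the labels and the study's methods, CD45-enriched dorsal skin cells were captured with 10x 3′ chemistry, and the authors used Cell Ranger 6.1.1 with mm10. The deposited matrices hold raw UMI counts per gene and barcode, with no normalization. From these counts, barcodes with under 10% mitochondrial UMIs and 200 to 4000 genes (6000 in WT_UV, as in the study) were kept. Cells were integrated with Seurat 5.3.0 (SCT, 3000 genes, 30 dimensions, R 4.3.3) without 80 listed genes, the members among them, clustered at a resolution of 0.8 and again within clusters at 0.5, and named from 25 marker panels. The limits for naming were set after the clusters were seen. Scrublet marked 1.32%, 0.019% and 0.033% of cells, which is not usable, so no doublets were removed. UMIs were summed by class and library and scaled to 1000000 (CPM). Folds have exact conditional intervals, levels exact Poisson and shares Wilson intervals (scipy 1.17.1), tested on simulated data. A fold was counted from 2, with a pseudocount of 1 CPM, among genes with a mean of 10 CPM or more. Named were the members, at most 4 genes a list with the largest change, the 5 genes most like Fabp5, and the carry-over genes and Ptgs2. The members and lists were chosen with earlier results of these data known. There were 11 planned and 2 added alternatives. One gene of the lists is not reported here.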

Additional observations from a re-analysis of the deposited data

Results flagged for a closer look

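Lpl had opposite directions in macrophages and keratinocytes, which was not tested since each group was 1 library. For RP_UV over WT_UV its log2 ratio was 2.65 in all keratinocyte classes pooled and -2.18 in macrophages, and for RP_UV over WT_Ctrl it was 2.49 and -2.17. In the pooled keratinocytes Lpl passed the filter on low values only through RP_UV. In basal keratinocytes, which hold no sebocytes, the RP_UV over WT_Ctrl value was 1.47, from 5.79 and 17.9 CPM. Abcg1 also differed in direction, untested, with a log2 ratio for RP_UV over WT_Ctrl of -2.20 in basal keratinocytes, from 17.9 and 3.12 CPM, and of 1.3 in macrophages.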

How the results depend on the processing

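No paired analysis was possible because each group was 1 library and the labels give no replicate numbers, and no replicate could be left out. The log2 ratio of Fabp5 for WT_UV over WT_Ctrl in macrophages, 3.21, was 3.07 with a pseudocount of 10, 3.06 with classes from marker UMIs of each cell, 3.44 with each library clustered alone, 3.03 with every cluster named by its best panel and 3.42 without macrophages holding a keratin UMI. The members' median for WT_UV over WT_Ctrl, 0.14, was -0.11 with best-panel names and 0.27 without keratin-bearing macrophages. For RP_UV over WT_UV, 0.32 became 0.40 with 4000 genes as the limit in every library, 0.48 as a mean over cells, 0.41 with libraries clustered alone and 0.27 without keratin-bearing macrophages. For RP_UV over WT_Ctrl, 0.90 became 0.65 with the pseudocount, 0.75 with marker classes, 1.18 with libraries clustered alone and 0.76 with best-panel names. Genes past 2-fold, 340, 334 and 592 in that order of comparisons, fell to 210, 174 and 347 with the pseudocount and reached 661, 739 and 1186 with no filter on low values. The causes were not tested, except that the filter changes the genes counted. Leaving out monocyte clusters, or the keratin-rich cluster, were alternatives chosen after seeing the data. Over the settings that apply to single genes, 13 with the one reported, the log2 ratio ran from -1.14 to -0.85 for Apoe and 0.97 to 1.41 for Abcg1 (WT_UV over WT_Ctrl), from 1.07 to 1.41 for Trem2 (RP_UV over WT_Ctrl), from -2.32 to -1.62 for Lpl (RP_UV over WT_UV) and from -0.67 to 2.75 for Gpnmb (WT_UV over WT_Ctrl), whose few UMIs settle no direction. Depth differed most between WT_UV and the other libraries.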
